A study of Mus musculus with 45 samples.

Results

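The proteasome gene set examined here held 42 genes, taken as every symbol in the expression table of the series that joined the root Psma, Psmb, Psmc, Psmd or Psme to a number. That table listed 11900 genes, and the wider count table listed 29307. A 43rd gene of the mouse annotation, Psmb11, fitted the same pattern but had 0 reads in all 45 libraries and was not in the expression table. By role, 7 of the 42 genes encoded the alpha ring of the core particle, 7 its constitutive beta ring, 3 the inducible beta subunits, 6 the ATPases and 11 the non-ATPases of the regulatory particle, 3 its assembly chaperones, 2 the inducible activator, 2 other activators and 1 a tissue-restricted alpha subunit.

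The samples were bone marrow-derived macrophages, grown for 6 days with the growth factor M-CSF from C57BL/6N mice aged 6 to 10 weeks. All mice carried an engineered Famin gene (Lacc1 in mouse nomenclature) encoding 1 of 3 FAMIN variants. Famin p.254I is the non-risk variant and served as the reference, Famin p.254V is the variant linked to risk of Crohn's disease and leprosy, and Famin p.284R is the variant of a monogenic inflammatory disease. M0 macrophages were left unstimulated, M1 macrophages received 50 ng/mL interferon-gamma and 20 ng/mL lipopolysaccharide for 24 h, and M2 macrophages received 20 ng/mL interleukin-4 for 24 h. Each of the 9 groups had 5 libraries, and the design names 5 mice per genotype. The 3 libraries with one genotype and one replicate number were taken as cultures of 1 mouse, giving 15 mice, although the labels do not state this link. The design asks how the subunits respond to each stimulus, and whether the FAMIN variant alters their level or that response.

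The proteasome degrades ubiquitin-tagged proteins. Its barrel-shaped core is a stack of alpha and beta rings, and the cutting sites lie in the beta subunits encoded by Psmb5, Psmb6 and Psmb7. Interferon-gamma induces the alternative catalytic subunits Psmb8, Psmb9 and Psmb10, which take the places of Psmb5, Psmb6 and Psmb7 in newly built particles, called immunoproteasomes. These particles favour peptides that bind MHC class I molecules. The regulatory particle caps the core and unfolds substrates with its ring of ATPases (Psmc genes) beside non-ATPase subunits (Psmd genes). The alternative cap PA28 is built from the interferon-inducible Psme1 and Psme2.

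The libraries held between 17239009 and 43740283 counted reads (median 27553642), and all 42 genes passed the filter on low counts. Psma8, a testis-associated alpha subunit, was the sparsest with 2107 reads over all libraries, against at least 28058 for every other gene. Levels are given as CPM, counts scaled to a common library total after adjustment by the TMM method. Within groups, the coefficient of variation of a gene other than Psma8 lay between 4.49% and 11.4%. Macrophage markers were abundant in every library, and T and NK cell markers were near 0, with Cd3e at most at 0.122 CPM and Ncr1 at most at 0.183 CPM. The M1 marker Cxcl9 had a median of 3262 CPM in M1 and at most 1.45 CPM elsewhere. Nos2 ranged from 3.01 to 149 CPM in M1 and reached at most 0.574 CPM elsewhere, whereas Il12b was near 0 in M1 as well, at most 0.201 CPM. The M2 markers Arg1, Retnla and Chil3 had medians of 1030, 3279 and 1470 CPM in M2. Of the neutrophil genes, S100a8 lay between 4.85 and 69.1 CPM and S100a9 between 7.63 and 125 CPM, whereas Mpo was at most 1.81 CPM. The fibroblast collagen Col1a1 ranged from 8.10 to 38.1 CPM in M0 and from 2.23 to 11.7 CPM in M1 and M2. Col1a2 lay between 3.59 and 44.8 CPM, whereas the fibroblast gene Pdgfra was at most 0.903 CPM. Of the dendritic cell markers, Xcr1 was at 4.62 to 10.6 CPM in M1 and at most 0.154 CPM elsewhere, Zbtb46 was at 3.80 to 12.4 CPM in M2 and at most 1.02 CPM elsewhere, and Flt3 was at most 0.317 CPM. The part of such cells in the results was not tested.

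The M0 library of Famin p.254I replicate 4 stood apart from the other 14 M0 libraries, which touches every comparison with M0. In it Psmb8 was at 187 CPM, against 109 to 137 CPM in the others, Psme1 was at 180 CPM against 104 to 116 CPM, and Psmb9 was at 87.6 CPM against 43.8 to 66.6 CPM. It lay above all the other M0 libraries for 12 of the 42 genes and below all of them for 4, and the same held for 17.1% and 16.6% of all genes tested. Interferon-induced genes were among those above, with Isg15 at 158 CPM against at most 47.1 CPM and Tap1 at 232 CPM against at most 141 CPM. Its Cxcl9 level, 1.45 CPM, was close to the highest of the others (1.43 CPM) and far from the M1 libraries, which had at least 979 CPM. Results for the inducible genes and their ratios, and the falls of interferon-related genes in M2, are therefore also given without this library. A second library, M1 of p.254I replicate 5, held more M2 marker RNA than the other 14 M1 libraries, with Arg1 at 40.8 CPM against at most 0.912 and Retnla at 49.1 CPM against at most 0.249. With that mouse left out, 38 of the 42 genes were still called higher in M1 than in M0, Psmb8 had a log2 fold change of 2.66 and Psmb9 of 2.52, and none of the 42 was called between genotypes.

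Promoter stretches of the 3 inducible catalytic genes are shown first, because these genes responded differently to interferon-gamma with lipopolysaccharide and to interleukin-4. Each is RefSeq sequence before the annotated transcription start, on the gene's own strand and in build GRCm38.p6. In the GENCODE M21 annotation Psmb8 spans chr17:34197721-34201454 on the plus strand and Psmb9 chr17:34181987-34187764 on the minus strand, and Psmb10 spans chr8:105935735-105938444 on the minus strand. Annotated exons cover the 250 bases before the RefSeq starts of Psmb8 and Psmb9, so 30 bases around a motif are given for them. The gene and strand of those exons were not checked. The Psmb10 stretch of 198 bases lies outside exons. Capitals mark a match to TTCNNNGAA, the classical gamma-activated site (GAS), in Psmb8, and to its wider form TTCNNNNGAA, which STAT6 prefers, in Psmb10. In Psmb9 they mark TGANNNNGC, a loose form of the element of the proteasome regulator NFE2L1 and its relatives. This loose form leaves the base after TGA open, so a match is not shown to be that element.
Psmb8 (chr17:34198087-34198116, plus strand): gtcctccgctgTTCCCAGAAgatgcccccc
Psmb9 (chr17:34187372-34187401, minus strand): cccttgcgcgaTGATGGGGCggggcctcag
Psmb10 (chr8:105938445-105938642, minus strand): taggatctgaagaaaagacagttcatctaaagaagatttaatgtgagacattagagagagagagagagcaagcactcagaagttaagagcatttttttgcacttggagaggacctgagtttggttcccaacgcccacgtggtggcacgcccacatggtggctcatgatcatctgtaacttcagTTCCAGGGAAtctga

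Motifs were searched on both strands of windows that also held 50 bases after the start, for 32851 mouse promoters and for the 35 genes of the set with an entry outside chromosome 18. Psmb8 held the GAS palindrome at 97 to 89 bases before its start, as did the window of Psmd2, and 8.3% of all promoters held it. The wider STAT6-type form stood at 67 to 58 bases before the Psmb10 start, in no other window of the set, and in 6.95% of all promoters. The interferon regulatory factor element GAAANNGAAA, which IRF1 binds, lay at 10 to 19 bases after the Psme1 start on the opposite strand. It was also in the windows of Psmb3, Psmd4 and Psmd9, and in 3.44% of all promoters. The windows of Psmb9 and Psme2 held none of these 3 motifs. Bases before the outermost annotated start of Psmb9 (34187764) were not searched, because its window ended inside the gene, at 34187580. The windows of Psmb8 and Psme1 also began inside the annotated gene, at 34197945 and 55578244 against gene starts of 34197721 and 55578123. The loose form TGANNNNGC was in a window of 20 of the 35 genes, some of which had more than 1 window. It was in 41.3% of all promoters, a share per promoter and not per gene. The NF-kB consensus was in 1 window, that of Psmd12, and in 4.51% of all promoters. In the windows of the inducible genes no match overlapped another, and a match describes letters, not a bound site.

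**Figure D1:**
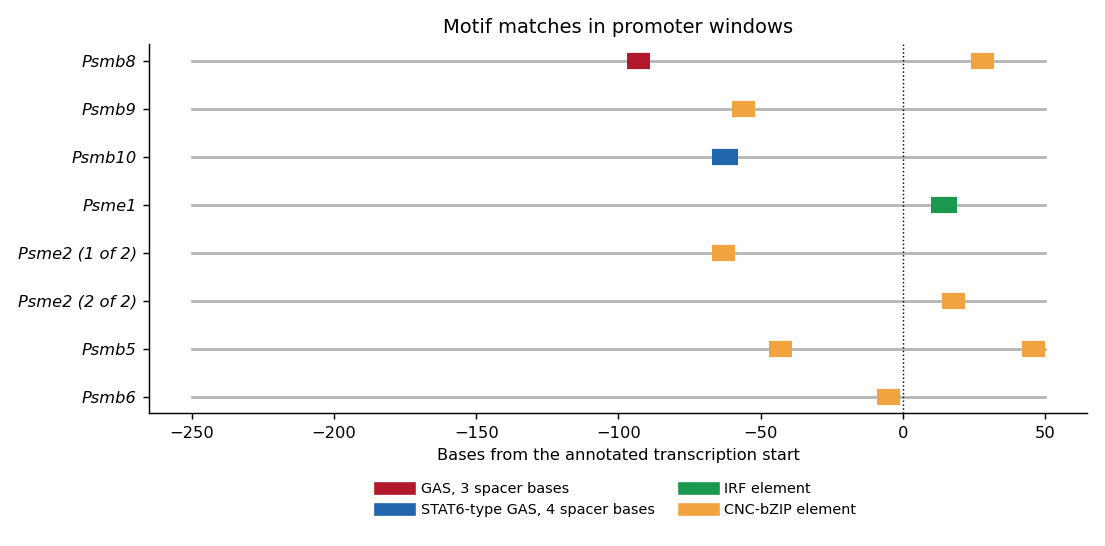
Motif matches in the promoter windows of the inducible genes and of Psmb5 and Psmb6. The x axis gives the position in bases from the RefSeq start, and coloured blocks mark the matches on either strand. GAS is the gamma-activated site, and CNC-bZIP marks TGANNNNGC, the loose form of the element of the NFE2L1 family. Psme2 had 2 annotated starts. Psmb8 held the GAS (8.3% of all promoters), Psmb10 the STAT6-type form (6.95%) and Psme1 the interferon regulatory factor element (3.44%). Outside the inducible genes, Psmd2 also held the GAS, and Psmb3, Psmd4 and Psmd9 the interferon regulatory factor element.

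M1 polarization raised 38 of the 42 genes and lowered none (edgeR quasi-likelihood test, adjusted p under 0.05), where 37% of all 12905 genes tested were higher and 40.3% lower. The median log2 fold change was 0.63 over the 42 genes and -0.03 over all genes. Every M1 library lay above every M0 library for 32 of the 42 genes, and for 15.2% of all genes. In bulk RNA, fewer cells of a type and less RNA per cell cannot be told apart.

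The 5 inducible genes rose most. Psmb8, which encodes the inducible chymotrypsin-like subunit, had 109, 118 and 187 CPM in M0 (lowest, median and highest of 15 libraries) and 724, 773 and 827 CPM in M1, a log2 fold change of 2.65 ± 0.06 (SE). Psmb9 had 43.8, 54.9 and 87.6 CPM in M0 and 291, 324 and 352 CPM in M1, and its log2 fold change was 2.53 ± 0.06. Psmb10 went from 69.2, 79.5 and 119 CPM to 380, 438 and 531 CPM, a log2 fold change of 2.44 ± 0.05. The lowest M1 library of each catalytic gene was thus far above the highest M0 library, the p.254I replicate 4 library included. The PA28 genes rose as well. Psme1 had 104, 111 and 180 CPM in M0 and 452, 484 and 511 CPM in M1, a log2 fold change of 2.07 ± 0.05. Psme2 went from 36.98, 39.9 and 54.9 CPM to 193, 226 and 276 CPM, a log2 fold change of 2.49 ± 0.06. Neither gene overlapped between M0 and M1. Adjusted p-values of these 5 genes were at most 3.4e-31 by edgeR, and each gene was higher in M1 in 15 of 15 mice. Without the M0 library of p.254I replicate 4, the log2 fold changes were 2.72 for Psmb8, 2.60 for Psmb9, 2.51 for Psmb10, 2.14 for Psme1 and 2.54 for Psme2.

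The genes of the constitutive core followed with smaller and unequal changes. All 7 alpha ring genes rose, with a median log2 fold change of 0.93. Psma5 rose most (1.36 ± 0.04), from a median of 23.8 to 61.6 CPM, then Psma4 (1.16 ± 0.03), and Psma6 rose least (0.48 ± 0.04). All 7 constitutive beta genes rose as well, with a median of 0.63. The non-catalytic Psmb2 was at the top (1.23 ± 0.04), followed by Psmb7, the trypsin-like subunit (1.14 ± 0.05), which had 74.0, 82.2 and 92.7 CPM in M0 and 156, 181 and 210 CPM in M1.

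The other 2 constitutive catalytic genes had the smallest changes of the core. Psmb5, the chymotrypsin-like subunit, had 24.5, 28.9 and 33.7 CPM in M0 and 28.9, 38.0 and 51.7 CPM in M1, a log2 fold change of 0.39 ± 0.06 (adjusted p = 9.4e-08, edgeR) with overlapping libraries. Psmb6, the caspase-like subunit, had 130, 153 and 169 CPM in M0 and 152, 164 and 187 CPM in M1, a log2 fold change of 0.13 ± 0.04 (adjusted p = 0.0078, edgeR), and was higher in M1 in 13 of 15 mice.

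In the regulatory particle, all 6 ATPase genes rose within a narrow range, from 0.48 ± 0.04 for Psmc1 to 0.72 ± 0.03 for Psmc3, with Psmc4 at 0.66 ± 0.04. Of the 11 non-ATPase genes, 9 rose, led by Psmd3 (0.74 ± 0.04) and Psmd11 (0.67 ± 0.04). The scaffold gene Psmd1 did not pass the test (-0.01 ± 0.03), with a median of 205 CPM in M0 and 203 CPM in M1, and neither did Psmd8 (0.02 ± 0.05). Among the 3 chaperones that help to build the ATPase ring, Psmd9 (0.17 ± 0.03) and Psmd10 (0.14 ± 0.04) rose, and Psmd5 did not pass the test (-0.07 ± 0.04, adjusted p = 0.10 by edgeR). With the mouse as a block in edgeR, Psmd5 was called lower in M1 (log2 fold change of -0.075, adjusted p = 0.0385). Of the activators outside PA28-alpha and PA28-beta, Psme3 (PA28-gamma, a nuclear cap) rose by 0.27 ± 0.04, from 73.8, 82.96 and 86.9 CPM to 92.2, 98.3 and 108 CPM. Psme4 (PA200) rose by 0.47 ± 0.05, from 125, 154 and 171 CPM to 165, 210 and 232 CPM, with a slight overlap of the libraries. Psma8 stayed between 0.889 and 2.31 CPM in M0 and between 0.919 and 2.16 CPM in M1, and did not pass the test.

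**Figure D2:**
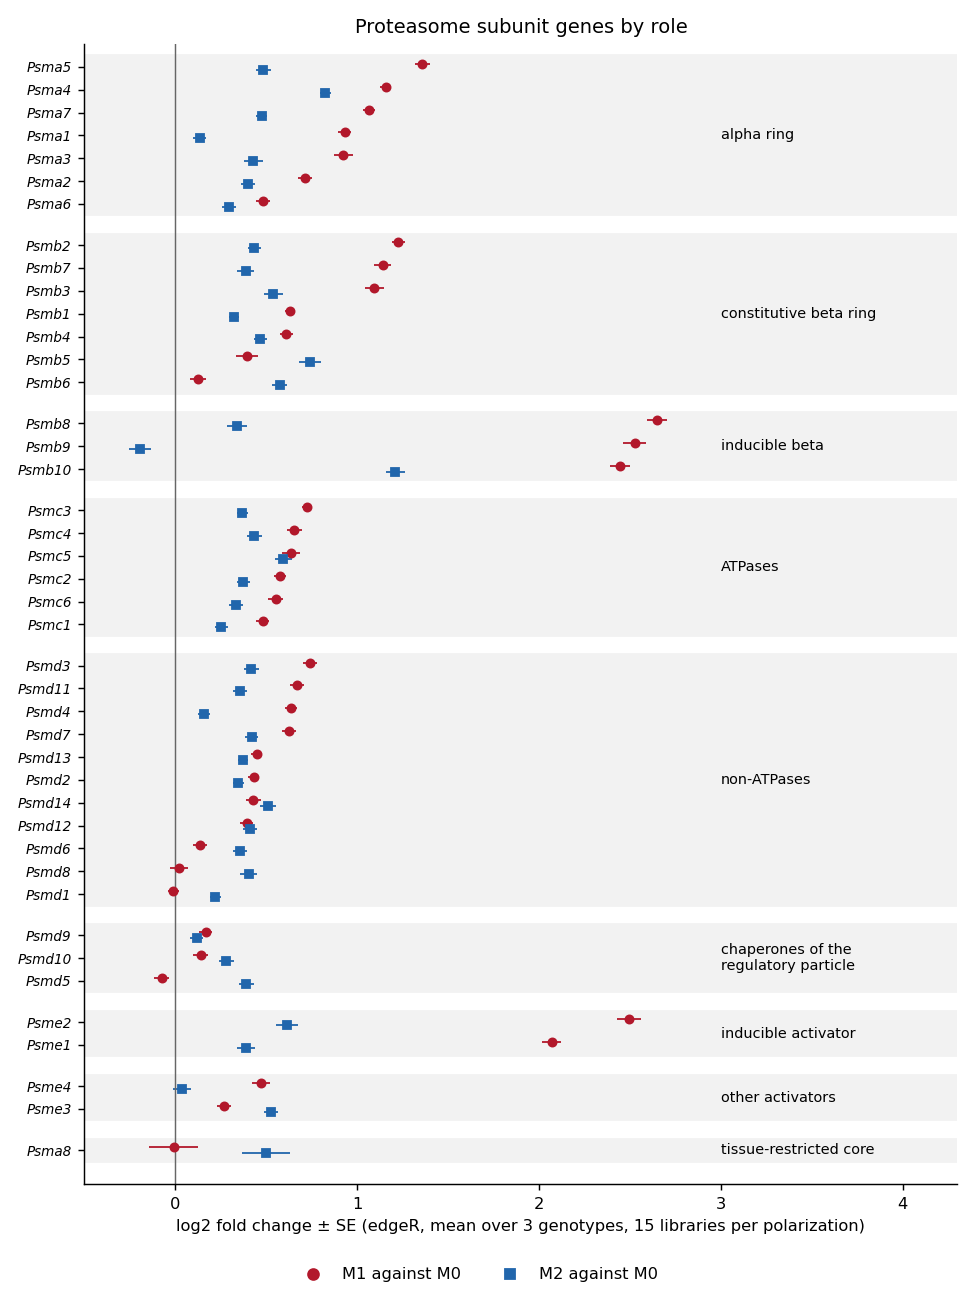
Log2 fold changes of the 42 genes in M1 against M0 (red circles) and M2 against M0 (blue squares), with bars of 1 SE, grouped by role and averaged over the 3 genotypes with 15 libraries per polarization. The 5 inducible genes lie between 2.07 and 2.65 in M1, beyond the highest other gene, Psma5 at 1.36, and in M2 Psmb10 lies at 1.21 and Psmb9 below 0 at -0.19.

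M2 polarization gave a flatter profile. Of the 42 genes 40 were higher than in M0, 1 was lower and 1 was not called, where 36.8% of all genes were higher and 39.6% lower, and the median log2 fold change was 0.40 over the set and -0.03 over all genes. Every M2 library lay above every M0 library for 26 of the 42 genes and for 13.6% of all genes. All 7 alpha ring genes rose (median 0.43, with Psma4 at 0.82 ± 0.03 and Psma5 at 0.48 ± 0.04), as did all 7 constitutive beta genes (median 0.47). Psmb5 rose to 42.9, 46.9 and 59.9 CPM (lowest, median and highest), a log2 fold change of 0.74 ± 0.06, and Psmb6 to 184, 222 and 268 CPM, a log2 fold change of 0.57 ± 0.04. These 2 catalytic genes were therefore higher in M2 than in M1, by 0.35 ± 0.06 and 0.45 ± 0.04 on the log2 scale, and Psmb6 was so in 15 of 15 mice. Psmb7 rose by 0.39 ± 0.05, to 90.4, 105 and 125 CPM.

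The inducible genes did not move together under interleukin-4. Psmb10 rose to 170, 186 and 213 CPM, a log2 fold change of 1.21 ± 0.05, and all M2 libraries lay above all M0 libraries. Psmb8 had 139, 151 and 188 CPM and rose by 0.34 ± 0.05, overlapping with M0 through the p.254I replicate 4 library, and without that library the change was 0.40. Psmb9 had 40.3, 49.4 and 55.4 CPM and was lower than in M0 by edgeR (-0.19 ± 0.06, adjusted p = 0.0044). The fall was seen in 11 of 15 mice, and by edgeR it was -0.13 without the p.254I replicate 4 M0 library (adjusted p = 0.016, edgeR). Within p.254I alone it was -0.34 with that library and -0.16 without it, no longer called. Psme1 rose by 0.39 ± 0.05, to 134, 146 and 170 CPM, and Psme2 by 0.61 ± 0.06, to 50.8, 60.8 and 80.5 CPM. Without the same M0 library the changes were 1.27 for Psmb10, 0.45 for Psme1 and 0.65 for Psme2.

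All 6 ATPase genes rose in M2, with Psmc5 (0.59 ± 0.05) and Psmc4 (0.44 ± 0.04) ahead, and so did all 11 non-ATPase genes, led by the deubiquitinase Psmd14 (0.51 ± 0.04) and its partner Psmd7 (0.42 ± 0.04). Psmd1 and Psmd8, which were not called in M1, rose in M2 by 0.22 ± 0.03 and 0.40 ± 0.05, each in 15 of 15 mice. The 3 chaperones rose, led by Psmd5 (0.39 ± 0.04, from a median of 41.5 to 55.6 CPM) and Psmd10 (0.28 ± 0.04). Psme3 rose by 0.53 ± 0.04, to 103, 113 and 142 CPM, and Psma8 by 0.50 ± 0.13. Psme4, with 134, 156 and 171 CPM, was not called (0.04 ± 0.05).

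Set directly against M2, M1 macrophages had 29 of the 42 genes higher, 9 lower and 4 not called, where 39% of all genes were higher and 40.1% lower. Every M1 library lay above every M2 library for 16 of the 42 genes (17.6% of all genes), among them all 5 inducible genes. The reverse held for 2, Psmd5 and Psmd8 (18.1% of all genes). Psmb9 had the largest difference (2.72 ± 0.06), then Psmb8 (2.31 ± 0.06), Psme2 (1.88 ± 0.06), Psme1 (1.68 ± 0.05) and Psmb10 (1.24 ± 0.05). The 9 genes lower in M1 were Psmb5, Psmb6, Psmd1, Psmd5, Psmd6, Psmd8, Psmd10, Psme3 and Psma8. Summed over genes, the 5 inducible genes held a median of 401 CPM in M0, 2277 CPM in M1 and 602 CPM in M2, and the other 37 held 3510, 5134 and 4449 CPM.

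**Figure D3:**
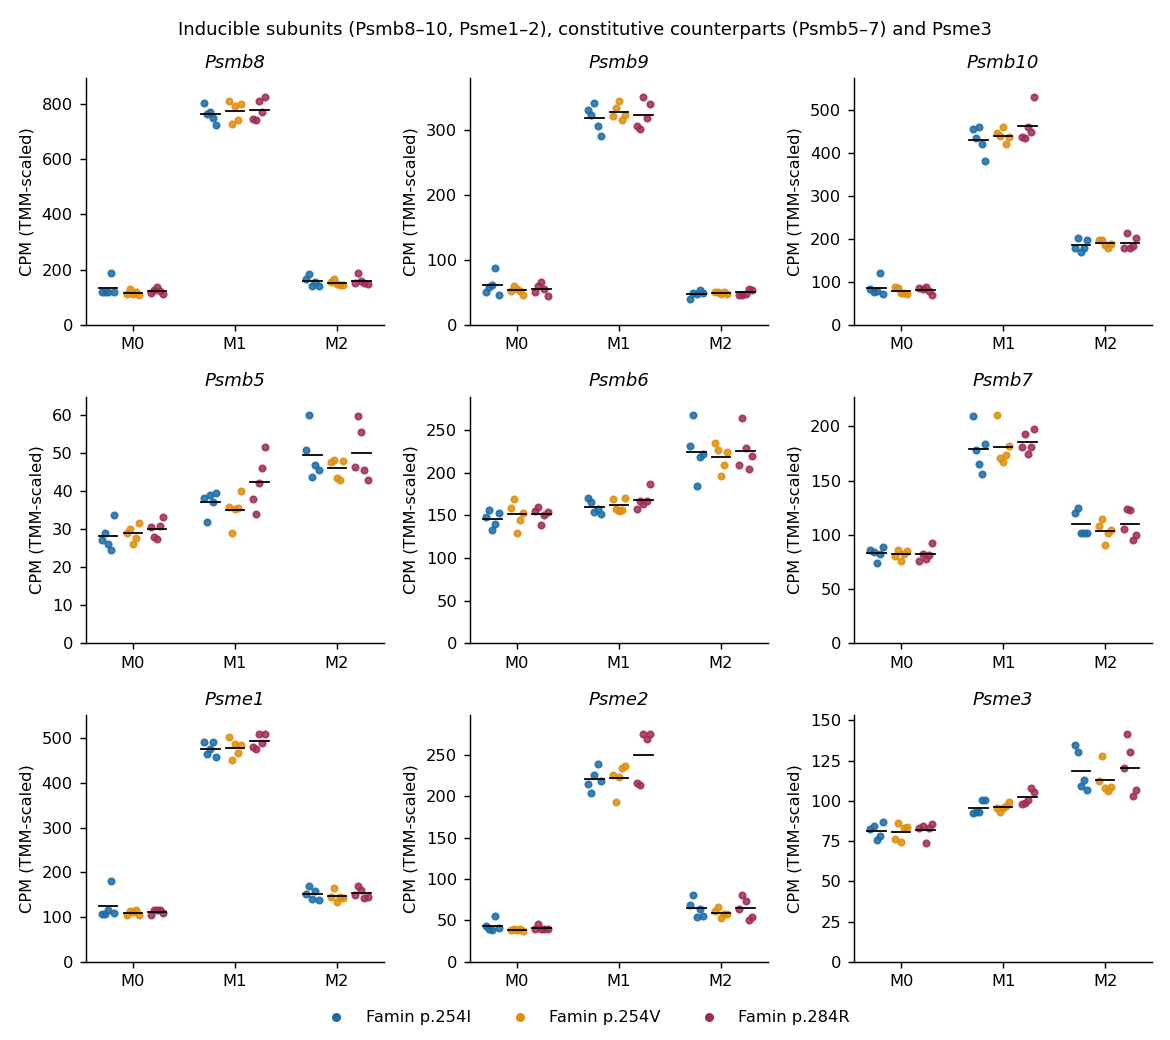
Levels in each library in CPM for the inducible genes (Psmb8, Psmb9, Psmb10, Psme1, Psme2), the constitutive counterparts (Psmb5, Psmb6, Psmb7) and Psme3, by polarization and genotype, with bars at the mean of 5 libraries. Psmb8 lies at 724 to 827 CPM in M1 and at 109 to 188 CPM elsewhere, whereas Psmb5 and Psmb6 are highest in M2 by median.

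Levels per length changed the order of the genes. As CPM per kilobase of summed exons, Psma6 (101), Psmb6 (81.7) and Psmd8 (79.5) had the highest medians in M0, and in M1 the top 3 were Psmb10 (257), Psmb8 (229) and Psme1 (219). In M2 the highest were Psma6 (121), Psmb6 (118) and Psmb10 (109). Neighbours in these lists overlapped in M2, where Psmb6 ranged from 98.5 to 143 and Psmb10 from 99.5 to 125 CPM per kilobase. The order holds for summed exons only and depends on the length used. Psmb6 has 1872 bases of summed exons and 798 in its principal transcript, against 1234 and 1042 for Psma6.

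The balance between each inducible subunit and the one it replaces was measured as the log2 ratio of reads per kilobase within a library, which needs no scaling between libraries. Psmb8/Psmb5 had a ratio of 1.13 in M0 (median of 15 libraries, range 0.907 to 2.02), 5.35 in M1 (4.25 to 6.69) and 0.867 in M2 (0.765 to 0.923). The M1 range lay wholly above both others. Psmb9/Psmb6 had a ratio of 0.183 in M0 (0.146 to 0.321), 0.998 in M1 (0.924 to 1.14) and 0.115 in M2 (0.0889 to 0.139), again with M1 apart and with M2 wholly below M0. Psmb10/Psmb7 was at 1.97 in M0 (1.497 to 2.90), 4.89 in M1 (4.15 to 5.57) and 3.52 in M2 (2.91 to 4.12), so that M2 lay between M0 and M1 and above all M0 libraries.

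From M0 to M1 the ratio rose 4.82-fold for Psmb8/Psmb5, 5.33-fold for Psmb9/Psmb6 and 2.49-fold for Psmb10/Psmb7, each in 15 of 15 mice (p = 6.1e-05, two-sided exact sign-flip permutation test over mice, the smallest p it can give, adjusted p = 0.000206 over 27 tests). From M0 to M2 the pairs parted. Psmb8/Psmb5 was 1.31-fold lower, in 14 of 15 mice (exact permutation p = 0.000122), and Psmb9/Psmb6 was 1.68-fold lower, in 15 of 15 mice (exact permutation p = 6.1e-05). Psmb10/Psmb7 was 1.78-fold higher, in 15 of 15 mice (exact permutation p = 6.1e-05). Between M1 and M2 the difference was 6.33-fold, 8.96-fold and 1.39-fold, higher in M1 in 15 of 15 mice for each pair. Without the M0 library of p.254I replicate 4 the log2 differences from M0 to M1 were 2.33, 2.47 and 1.34, against 2.27, 2.41 and 1.31 with it, and those from M0 to M2 were -0.33, -0.70 and 0.87, against -0.39, -0.75 and 0.83. Libraries with the same replicate number deviated together across genotypes, so the 15 mice may not be independent. With the genotypes averaged and signs flipped over the 5 replicate numbers, an analysis added after the values were seen, each of these 9 differences had the same sign in 5 of 5 numbers. The exact permutation p was then 0.0625, the smallest that 5 numbers can give, so this form of the test cannot reach 0.05.

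The differences between polarizations do not depend on gene length, but the levels do. With the length of the principal transcript in place of all annotated exons, the M0 medians were 2.34 for Psmb8/Psmb5, 0.211 for Psmb9/Psmb6 and 0.869 for Psmb10/Psmb7, the M1 medians were 11.1, 1.15 and 2.16, and the M2 medians were 1.80, 0.132 and 1.55. Psmb9 overlaps Tap1 on the opposite strand, and Psmb10, Psmb8 and Psme1 overlap Gm16156, Gm20496 and Emc9 likewise. Psmb7 overlaps Nek6 and Gm13586 on the opposite strand and Gm27634 on its own, and Psmb5 overlaps Mir686 on its own. The libraries were stranded, but whether counting used the strand is not given in the sources used here, so shared reads cannot be told apart. Psmb5, Psmb6 and Psmb7 also have named pseudogenes, among which reads could have been split.

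**Figure D4:**
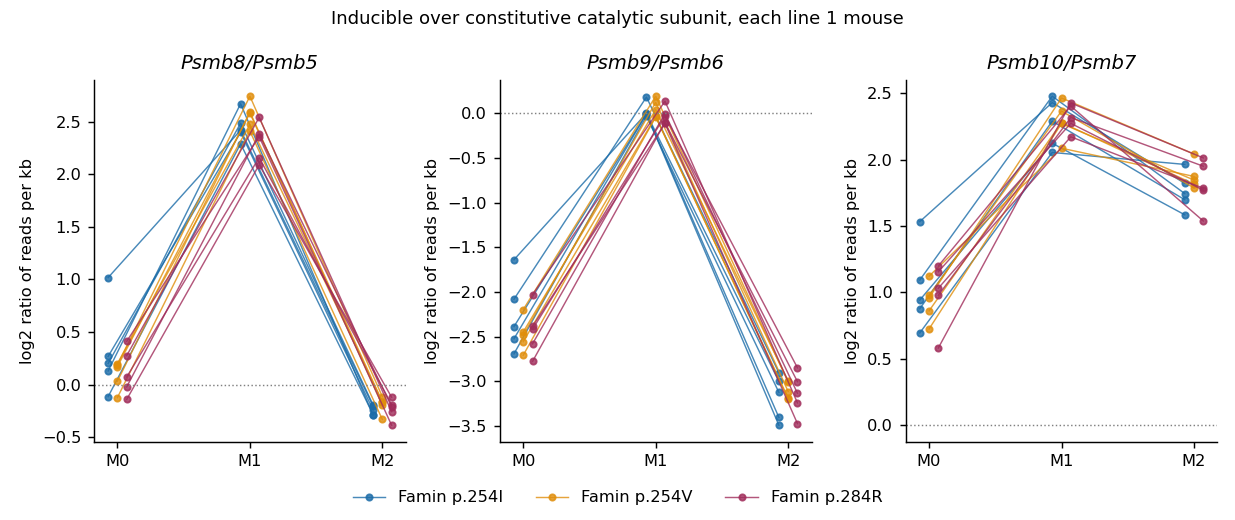
Log2 ratio of reads per kilobase of each inducible to its constitutive catalytic subunit, with 1 line per mouse through its M0, M1 and M2 libraries, coloured by genotype, and a dotted line at equal levels. All 15 lines rise from M0 to M1 in the 3 panels, and M2 falls below M0 for Psmb9/Psmb6 and lies above it for Psmb10/Psmb7.

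Between genotypes, none of the 42 genes was called in any of 13 comparisons, by edgeR, DESeq2 or limma-voom. Averaged over polarizations, Famin p.284R and Famin p.254V differed from p.254I for 0.0155% of all genes each (2 of 12905), and p.284R differed from p.254V for 0%. These averaged edgeR tests and their SEs treated the libraries of a mouse as independent. Within polarizations the share of all genes called for p.284R against p.254I was 0% in M0, 0.263% in M1 (34 genes) and 0.00775% in M2, and for p.254V it was 0% in each. The 4 tests of whether the response to M1 or M2 differed by genotype called 0% of genes. Without adjustment, the highest number of the 42 genes with p under 0.05 was 4, for p.284R against p.254V averaged over polarizations, where 4.7% of all genes had such a p. For p.284R against p.254I in M1 it was 1 of the 42, where 6.7% of all genes did. The averaged log2 differences from p.254I were at most 0.10 for p.284R and 0.20 for p.254V in size.

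The induced level of Psmb8 was compared between genotypes in full. In M1, Psmb8 had 724, 749, 764, 773 and 806 CPM in p.254I, 727, 744, 794, 801 and 812 CPM in p.254V, and 743, 745, 773, 810 and 827 CPM in p.284R. These ranges overlap almost completely, and the log2 difference from p.254I was 0.03 for p.284R (95% interval -0.15 to 0.22) and 0.02 for p.254V (-0.16 to 0.21). The M1 response of Psmb8 was 2.54 ± 0.10 in p.254I, 2.74 ± 0.10 in p.254V and 2.67 ± 0.10 in p.284R, and in p.254I it was 2.71 without the replicate 4 M0 library. The interaction intervals of Psmb8 reached from -0.06 to 0.47 for p.254V and from -0.13 to 0.40 for p.284R, so a difference in induction beyond these bounds was not seen.

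The smallest p of the averaged comparisons belonged to Psmb5 and Psmc4 for p.284R against p.254I (log2 differences of 0.10 ± 0.06 and 0.07 ± 0.04), to Psme2 and Psma8 for p.254V against p.254I (-0.09 ± 0.06 and 0.20 ± 0.13), and to Psmb5 and Psma6 for p.284R against p.254V (0.15 ± 0.06 and 0.09 ± 0.04), with adjusted p of at least 0.95 in edgeR. Within M1 the smallest was that of Psmd10, the chaperone also known as gankyrin. It had 25.8, 27.9, 29.6, 29.7 and 31.7 CPM in p.254I and 25.5, 28.7, 34.8, 38.6 and 39.4 CPM in p.284R, so that 3 of the 5 p.284R libraries lay above all p.254I libraries. The log2 difference was 0.21 ± 0.07 (adjusted p = 0.40, edgeR), and with p.284R replicate 1 left out it was 0.29 and was called (adjusted p = 0.016, edgeR). In the same 3 p.284R mice Psme2 had 270 to 276 CPM in M1, where the p.254I libraries had 205 to 239 CPM, and the difference over all 5 mice was 0.18 ± 0.10 and was not called. These 3 mice were singled out by Psmd10 in the same libraries, so the Psme2 values do not establish a subgroup. In M1, 41 of the 42 genes had a positive log2 difference between p.284R and p.254I. The median was 0.06, against -0.0029 over all genes. For the same genotypes 23 of the 42 were positive in M0 (median 0.0068) and 18 in M2 (median -0.0069). The genes share libraries and are not independent.

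The inducible to constitutive ratios were compared between genotypes in 18 of the 27 ratio tests, and none passed an adjusted p of 0.05. The smallest p was that of Psmb8/Psmb5 in M1, where p.284R was 1.19-fold lower than p.254V (exact permutation p = 0.0397, adjusted p = 0.107, 5 mice against 5). Libraries with the same replicate number deviated together in M1, so the 3 genotypes were also compared within replicate numbers, an analysis added after the values were seen. In all 5 numbers the order of Psmb8/Psmb5 in M1 was p.254V, p.254I, p.284R from high to low. The differences between p.284R and p.254I lay between -0.26 and -0.04 on the log2 scale, and those between p.254V and p.254I between 0.05 and 0.18.

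With genotype labels exchanged only within a replicate number, the exact permutation p for any difference among genotypes was 0.000772, the smallest it can give (adjusted p = 0.00926 over 12 tests of 3 ratios in each polarization and their mean). With free exchange over the 15 mice the exact permutation p was 0.0632 (adjusted p = 0.758), so the call rests on the replicate numbers, whose meaning the labels do not give. The other 11 of these 12 tests within numbers gave adjusted p of at least 0.231. For Psmb8/Psmb5 in M1, each pair of genotypes was also compared by sign flips over the 5 numbers. Each pair gave an exact permutation p of 0.0625, the smallest that 5 numbers can give, so no pair can reach 0.05 in this form. Of the 2 genes in this ratio, Psmb5 differed more between p.284R and p.254I, with 31.9, 37.2, 38.3, 39.0 and 39.4 CPM in p.254I, 28.9, 35.3, 35.6, 35.8 and 40.1 CPM in p.254V and 34.0, 38.0, 42.0, 46.0 and 51.7 CPM in p.284R. Its log2 difference between p.284R and p.254I in M1 was 0.19 ± 0.10 and was not called (adjusted p = 0.80, edgeR).

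**Figure D5:**
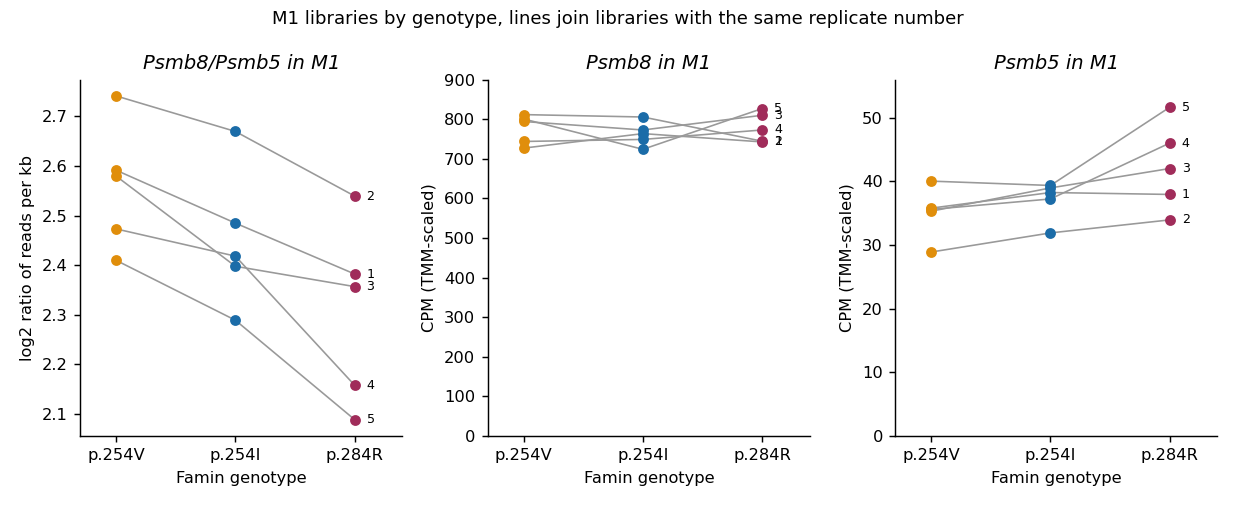
Psmb8/Psmb5 (log2 ratio of reads per kilobase), Psmb8 (CPM) and Psmb5 (CPM) in the M1 libraries by genotype, with points for the 5 mice and lines joining libraries that share a replicate number, printed at the right. Every line of the ratio falls from p.254V through p.254I to p.284R within 2.09 to 2.74, the Psmb8 lines cross, and Psmb5 reaches 51.7 CPM in p.284R.

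Genes that work with the proteasome were counted from lists chosen by function. Of 6 measured assembly and inhibitor genes, 5 rose in M1 and 5 in M2, where 37% and 36.8% of all genes did. Pomp, which drives the maturation of the core, rose from a median of 133 CPM in M0 to 343 CPM in M1 and 199 CPM in M2 (log2 fold changes of 1.35 and 0.58), and the core assembly chaperone gene Psmg4 rose by 1.02 in M1. Of 6 proteasome-associated genes, 4 rose and 2 fell in M1 and all 6 rose in M2. Of all genes, 37% rose and 40.3% fell in M1, and 36.8% rose in M2. The deubiquitinase gene Usp14 fell by 0.18 in M1 and rose by 0.71 in M2. Among 4 genes for factors that drive or process the proteasome regulator, Nfe2l1 rose (0.55 in M1, 0.16 in M2), and Ddi2 fell (0.26 in M1, 0.42 in M2). Nfe2l2 fell by 0.61 in M1 and was not called in M2, and Ngly1 was not called in M1 and fell by 0.29 in M2.

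The interferon factor genes Irf1, Irf8, Stat3 and Nlrc5 rose in M1, where 37% of all genes did. None of these 4 rose in M2, where 36.8% of all genes were higher and 39.6% lower. Irf1 had a median of 109 CPM in M0, 1382 CPM in M1 and 109 CPM in M2, and Nlrc5, the MHC class I activator, had 60.3, 430 and 31.4 CPM. All 4 peptide-loading genes rose in M1, against the same 37% of all genes. Tap1, the neighbour of Psmb9, was at 102, 962 and 78.8 CPM in M0, M1 and M2, and Tap2 at 69.5, 471 and 68.1 CPM. In M2, Tap1 fell by 0.46 on the log2 scale and Tapbp rose by 0.19, and Nlrc5 (-0.92), Irf8 and Stat3 fell. Without the M0 library of p.254I replicate 4 the M2 changes were -0.34 for Tap1 and -0.80 for Nlrc5, still called, and B2m, not called with it (0.14), was called higher (0.22). Of the ubiquitin-like modifiers, Isg15 rose by 3.34 in M1 and fell by 1.17 in M2 (0.83 without that M0 library), and Ubd (FAT10), which targets proteins to the proteasome, rose in M1 from at most 0.0657 CPM to between 2.70 and 31.4 CPM.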

How the data were processed

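RNA-seq was done on 45 libraries of bone marrow-derived macrophages, 5 for each of 9 groups of genotype and polarization. The deposited table of counts held whole read counts per gene as the authors made them, not normalized. The deposited CPM table held the authors' CPM values for 11900 genes, and all of its values gave back the whole reads of the count table (tolerance 0.01). The submitters' processing notes name FastQC, Trim Galore, HISAT2 and limma with build mm10, whereas the series text names another trimmer, aligner and sequencer. The counting tool and its strand setting are not given in the sources used here. The proteasome genes, lists and motifs were chosen with earlier results of these data known.

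Counts were fitted for 12905 genes after a filter on low counts, with TMM scaling and 9 group means, by edgeR 4.0.16 (quasi-likelihood test, Benjamini-Hochberg adjustment, threshold 0.05) in R 4.3.3. This main fit had no block and treated the libraries of a mouse as independent. The CPM levels given here rest on the counts and on TMM factors from 0.939 to 1.10. Ratios used reads per kilobase of summed exons with 0.5 reads added, and were tested by exact sign flips over 15 mice or 252 splits of 5 against 5 mice, two-sided. The ratio p-values were adjusted over 27 tests. The edgeR fit, the sign flips and the splits of 5 against 5 were run on simulated data with independent libraries. Those data held no effect of mouse or replicate number, so they cannot show how the p-values behave where libraries deviate together. The exchange of genotypes within a replicate number was not checked in this way.

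The 3 libraries of one genotype and replicate number were taken as cultures of 1 mouse, from the numbers in the titles and the 5 mice per genotype of the design text. Deviations of such libraries correlated above 0.1 in 38 of 45 pairs over 8197 genes (median 0.316, lowest -0.186). Libraries of the same number in different genotypes did so in 15 of 15 pairs in M0, 15 of 15 in M1 and 13 of 15 in M2. Their medians were higher, at 0.698, 0.5 and 0.421. The correlations therefore do not show that libraries of one genotype and number came from 1 mouse. Alternatives were other scaling, filters, limma 3.58.1 (limma-voom), DESeq2 1.42.0, blocks by mouse or number, other lengths, and each replicate left out.

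Values are given in full for Psmb5 to Psmb10 and Psme1 to Psme4. In each other role group the 2 genes with the largest change in M1 or in M2 and the 1 with the smallest in M1 were named, and between genotypes the 2 with the smallest p of each averaged comparison. Psmd1, Psmd8, Psma8, the 9 genes lower in M1 than in M2 and Psmd10 in M1 were named after their values were seen where that rule does not reach them. Of the lists, Paaf1 was not analysed here, and some other list genes are not reported here.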

Additional observations from a re-analysis of the deposited data

Results flagged for a closer look

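Of 126 sets of 5 libraries (14 gene levels and ratios in 9 groups), 10 held a library whose gap to the nearest other was over 0.71 of the range, where chance gives about 1 in 20. The M0 library of Famin p.254I replicate 4 was highest for 4 genes, with Psmb8 at 186.7972 CPM (next 118.8054), Psmb10 at 119.2514 CPM (next 82.2635), Psme1 at 180.0309 CPM (next 116.3677) and Psme2 at 54.9127 CPM (next 42.6778). In M1, Psmb5 was lowest in p.254I replicate 2 at 31.9076 CPM (next 37.2475), Psmb10 was highest in p.284R replicate 5 at 530.5387 CPM (next 460.7277), and the log2 ratio Psmb9/Psmb6 was highest in p.254I replicate 3 at 0.1817. In M0 of p.284R, Psme2 was highest in replicate 2 at 45.7456 CPM and Psme3 was lowest in replicate 3 at 73.8466 CPM. In M2 of p.254I, Psmd10 was highest in replicate 4 at 37.6608 CPM.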

How the results depend on the processing

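Of 476 alternative values for the numbers of proteasome genes called, 473 stayed within 1.5 times the reported number. The number lower in M1 than in M0 was 1 in place of 0 with at least 10 counts required in every library and with the mouse as a replicate block, and the gene was Psmd5 in both. The number called for p.284R against p.254I in M1 was 0 to 1 with single replicates left out. All 9 differences of the 3 ratios between polarizations kept their direction, and their call except in the replicate block that flipped signs over the 5 replicate numbers (exact permutation p = 0.0625, the smallest it can give). The values there were 2.2678, -0.3941 and 2.662 for Psmb8/Psmb5 (M1 against M0, M2 against M0, M1 against M2), 2.4144, -0.7483 and 3.1627 for Psmb9/Psmb6, and 1.3139, 0.8338 and 0.4801 for Psmb10/Psmb7. For Psmb8/Psmb5 in M1 the range of the genotype means, 0.254 on the log2 scale, passed the threshold only in the replicate block that exchanged genotypes within a replicate number (adjusted p = 0.00926, exact permutation test), and the difference between p.284R and p.254V was -0.3126 to -0.1999 with single replicates left out. It was called (adjusted p = 0.0429, exact permutation test) without p.284R replicate 2. Apart from these and Psmd5 and Psmd14 (M1 against M2), the blocks changed no call of the genes and ratios tested. Small ratio differences between genotypes turned sign. Without the p.254I replicate 4 M0 library the averaged difference between p.254V and p.254I was 0.0429 for Psmb8/Psmb5 and 0.0314 for Psmb9/Psmb6. That between p.284R and p.254I was 0.0057 for Psmb9/Psmb6. Leaving out this library took the whole mouse out of the averages, so these values equal those with p.254I replicate 4 left out. With single replicates left out, the averaged differences were -0.0688 to 0.0429 for Psmb8/Psmb5 (p.254V against p.254I), and for Psmb9/Psmb6 -0.1096 to 0.0057 (p.284R against p.254I), -0.0838 to 0.0314 (p.254V against p.254I) and -0.0645 to 0.0168 (p.284R against p.254V). In M1, Psmb9/Psmb6 gave -0.0058 to 0.0667 (p.254V against p.254I). Psmb10/Psmb7 gave averaged differences of -0.0168 to 0.0777 (p.284R against p.254I), -0.0248 to 0.0697 (p.254V against p.254I) and -0.013 to 0.0388 (p.284R against p.254V), and in M1 -0.0117 to 0.0943, -0.0368 to 0.0704 and -0.0268 to 0.0678 in the same order. The uncalled Psmd1 in M1 against M0 was 0.0002 with no low-count filter and -0.0221 to 0.0103 with single replicates left out. The causes were not tested.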
